A study of Rattus norvegicus with 9 samples.

Results

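The genes described here encode the protein subunits of the cytosolic ribosome, the particle that translates messenger RNA. They were chosen by symbol: every gene named Rpl or Rps with a number, optionally followed by the letters that mark variants and paralogs, plus Rplp0, Rplp1, Rplp2 and Rpsa. The rule took 82 of the 17315 genes in the tables, 32 of the small subunit and 50 of the large. RNA came from horizontal basal cells of the olfactory epithelium of SD rats, grown as a primary culture and used at passage 7. These cells are the reserve stem cells of that epithelium. A group of 3 libraries came from cells given vehicle (0.1% DMSO, labelled time 0), another 3 from cells after 6 h in 50 nM PMA (phorbol 12-myristate 13-acetate, which turns on protein kinase C), and the last 3 from cells after 12 h in 50 nM PMA. No vehicle library carried a label of 6 h or 12 h, so PMA and time in culture cannot be told apart. Nothing in the labels ties the replicates to separate cultures or animals. The p-values therefore measure the spread between replicate libraries only, which may be technical.

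Ribosomal proteins are made in matched amounts, bind ribosomal RNA in the nucleolus and leave the nucleus as parts of the small and large subunits. Their mRNAs belong to the terminal oligopyrimidine (TOP) class, which begins with a C followed by an unbroken stretch of pyrimidines and whose translation depends on the mTORC1 kinase. Several subunits have a paralog, a closely related protein from a separate gene that can take the same place in the ribosome.

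The start sites of 8 members are shown because the pyrimidine stretch is what this gene family is known for, and because 2 of the paralog pairs whose balance moved are among them. Each line runs 5′ to 3′ from 50 bases before to 20 bases after the annotated start, taken from RefSeq on the GRCr8 assembly. Capitals mark an unbroken C or T stretch of at least 5 bases that begins with C at that start, and a line with no capitals has none there. Rpl10 lies on chrX:157205800-157205869 (+), Rps18 on chr20:4933695-4933764 (+), Rplp0 on chr12:46718371-46718440 (-) and Rpl12 on chr3:36661890-36661959 (+). Rps27 lies on chr2:177964587-177964656 (-), its paralog Rps27l on chr8:76443608-76443677 (+), Rpl22 on chr5:168117911-168117980 (+) and its paralog Rpl22l1 on chr2:113683146-113683215 (+).
Rpl10: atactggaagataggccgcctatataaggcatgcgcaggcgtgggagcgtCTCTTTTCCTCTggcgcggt
Rps18: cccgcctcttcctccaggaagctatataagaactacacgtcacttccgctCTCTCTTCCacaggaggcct
Rplp0: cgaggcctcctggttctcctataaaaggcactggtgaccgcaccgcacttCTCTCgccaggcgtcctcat
Rpl12: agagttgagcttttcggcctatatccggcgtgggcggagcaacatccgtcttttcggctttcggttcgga
Rps27: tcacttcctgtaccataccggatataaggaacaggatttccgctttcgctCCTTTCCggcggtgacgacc
Rps27l: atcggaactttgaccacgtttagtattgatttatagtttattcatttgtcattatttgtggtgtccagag
Rpl22: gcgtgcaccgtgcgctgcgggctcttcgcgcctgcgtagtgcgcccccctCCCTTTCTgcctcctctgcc
Rpl22l1: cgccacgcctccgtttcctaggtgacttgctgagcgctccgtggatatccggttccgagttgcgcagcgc
Rpl10, Rps18, Rplp0, Rps27 and Rpl22 begin with such a stretch at the annotated start. The paralogs Rps27l and Rpl22l1 do not, and begin with A and G. Rpl12 has its pyrimidines at the start too, but the annotated first base is T. Such a start was found in 24 of the 64 members with a single promoter entry, so lacking it is not particular to paralogs.

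Reads that fell in genes came to 13601635 to 19001819 per library, which were 67.8% to 71.3% of all reads. Levels are given as CPM, a gene's count relative to the library total after TMM scaling. They are not divided by transcript length, so they compare libraries and not genes. The 7 horizontal basal cell markers were all measured, and their summed level ranged from 14836 to 17039 CPM in vehicle, 2467 to 2980 CPM at 6 h and 3854 to 4497 CPM at 12 h. In vehicle Krt5 (mean 6827 CPM) and Krt14 (mean 5325 CPM) made up most of that sum. At both times 6 of the markers fell against vehicle. Icam1 rose, with means of 143 CPM in vehicle, 176 at 6 h and 359 at 12 h. Of 8 neuronal markers only Tubb3 passed the filter, at a summed 2.97 to 7.05 CPM over all libraries, and Gap43, Neurog1 and Stmn2 were among those with no read. Immune markers (3 of 6 passed, Ptprc without a read) summed to 26.6 to 29.1 CPM in vehicle, 70.4 to 72.8 CPM at 6 h and 83.6 to 95.7 CPM at 12 h. Cd68 alone carried that rise (mean 19.6, 69.4 and 85.6 CPM in the same order), while Cd14 fell from 7.80 to 1.48 and 3.26 CPM and Csf1r did not pass in either comparison with vehicle. Sustentacular and gland markers (3 of 8, Cyp2g1, Cyp1a2 and Ermn without a read) summed to 1207 to 1412, 1954 to 2015 and 2189 to 2530 CPM in the same order. Krt8 made up most of that sum (mean 1304, 1871 and 2150 CPM). The means of Krt18 were 6.49, 36.7 and 37.8 CPM, and those of Sox9 18.0, 72.5 and 137 CPM. Fibroblast markers (2 of 6, Col1a2 and Pdgfrb without a read) stayed at or below 5.65 CPM and endothelial and glial markers (1 of 6) at or below 3.64 CPM. The part of these shifts in the results that follow was not tested. In bulk RNA, a change in the mix of cells and a change in RNA per cell cannot be told apart.

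Ribosomal protein genes took up a larger part of the RNA after PMA. In vehicle they held 7.28%, 6.91% and 6.71% of the reads in genes. After 6 h they held 9.05%, 8.97% and 8.16%, and after 12 h 8.78%, 8.12% and 9.80%. Neither PMA group overlapped vehicle, and the PMA groups overlapped each other. The means were 6.97% ± 0.291 (SD, n = 3) in vehicle, 8.73% ± 0.492 at 6 h and 8.90% ± 0.846 at 12 h, which were 1.25-fold and 1.28-fold over vehicle. In an exact permutation test, 3 libraries against 3 cannot give a two-sided p below 0.1.

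**Figure D1:**
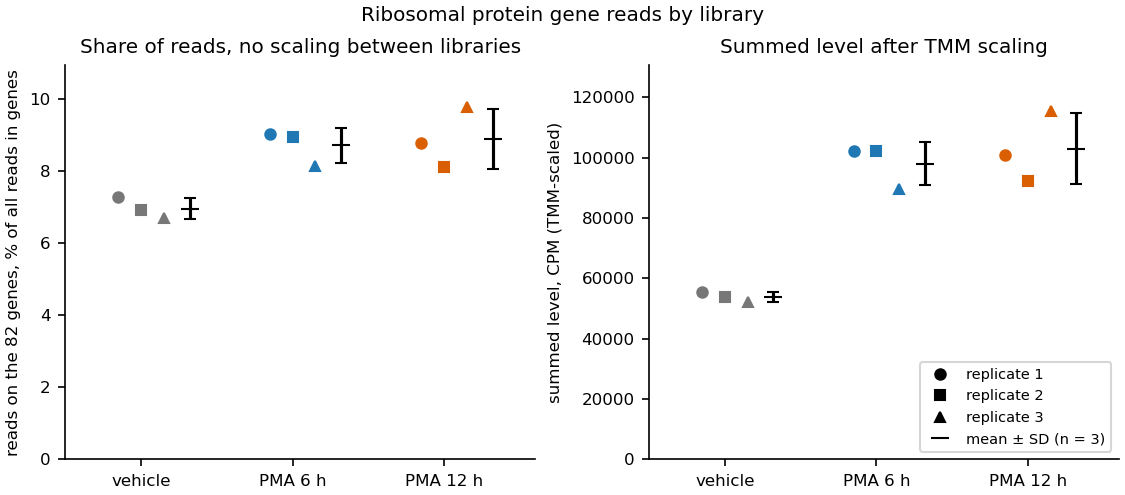
Percent of reads in genes that fell on the 82 ribosomal protein genes (left) and their summed level in TMM-scaled CPM (right), in each library by group (x axes, 3 libraries each), with the mean and SD. On the left, vehicle libraries lie between 6.71% and 7.28%, and all PMA libraries lie between 8.12% and 9.80%.

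The size of this rise depends on how libraries are put on a common scale. TMM factors were 1.28 to 1.31 in vehicle, 0.879 to 0.911 at 6 h and 0.848 to 0.880 at 12 h, so scaling raised the PMA libraries against vehicle. On the scaled totals the members summed to 53807 ± 1701 CPM in vehicle, 97953 ± 7176 at 6 h and 102944 ± 11761 at 12 h, 1.82-fold and 1.91-fold over vehicle (SD, n = 3). Without scaling the median log2 fold change over all tested genes was -0.57 at 6 h and -0.60 at 12 h, against -0.03 and -0.02 with TMM. The distance of the median member above that median was 0.91 at 6 h and 0.94 at 12 h with TMM, and 0.90 and 0.93 without scaling. A change of scaling shifts all genes by nearly the same amount. This distance could therefore hardly differ, and it is no check of the rise.

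After 6 h of PMA nearly the whole set was higher than in vehicle. Rpl3l, a paralog of Rpl3 found in striated muscle, had at most 3 reads in any library and was not tested. Of the 81 tested members 74 rose, 2 fell and 5 did not pass, by the quasi-likelihood F test of edgeR at an adjusted p under 0.05 (Benjamini-Hochberg, 10128 genes). Of all tested genes 76.8% were called, 37.8% higher and 39% lower (without scaling 2277 genes higher and 5855 lower). The median log2 fold change of the members was 0.87 (1.83-fold), and their quartiles lay at 0.74 and 0.96. Over all tested genes the median was -0.03, with quartiles at -0.86 and 0.76. In 75 members all 3 libraries at 6 h lay above all 3 of vehicle, which was so for 38.6% of all tested genes. Without scaling 51 members were called higher and 3 lower.

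After 12 h the picture was much the same. Against vehicle 78 members rose, none fell and 3 did not pass, with a median log2 fold change of 0.92 (1.89-fold) and quartiles at 0.82 and 1.03. Of all tested genes 75.8% were called at 12 h, 37.7% higher and 38.2% lower, and their median was -0.02. The 12 h libraries lay wholly above vehicle in 78 members and in 38.7% of all genes. Without scaling 58 members were called higher and 2 lower (over all genes, 2120 higher and 6021 lower). Both comparisons share the vehicle libraries, so the 12 h values are no second, separate measurement of the rise.

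**Figure D2:**
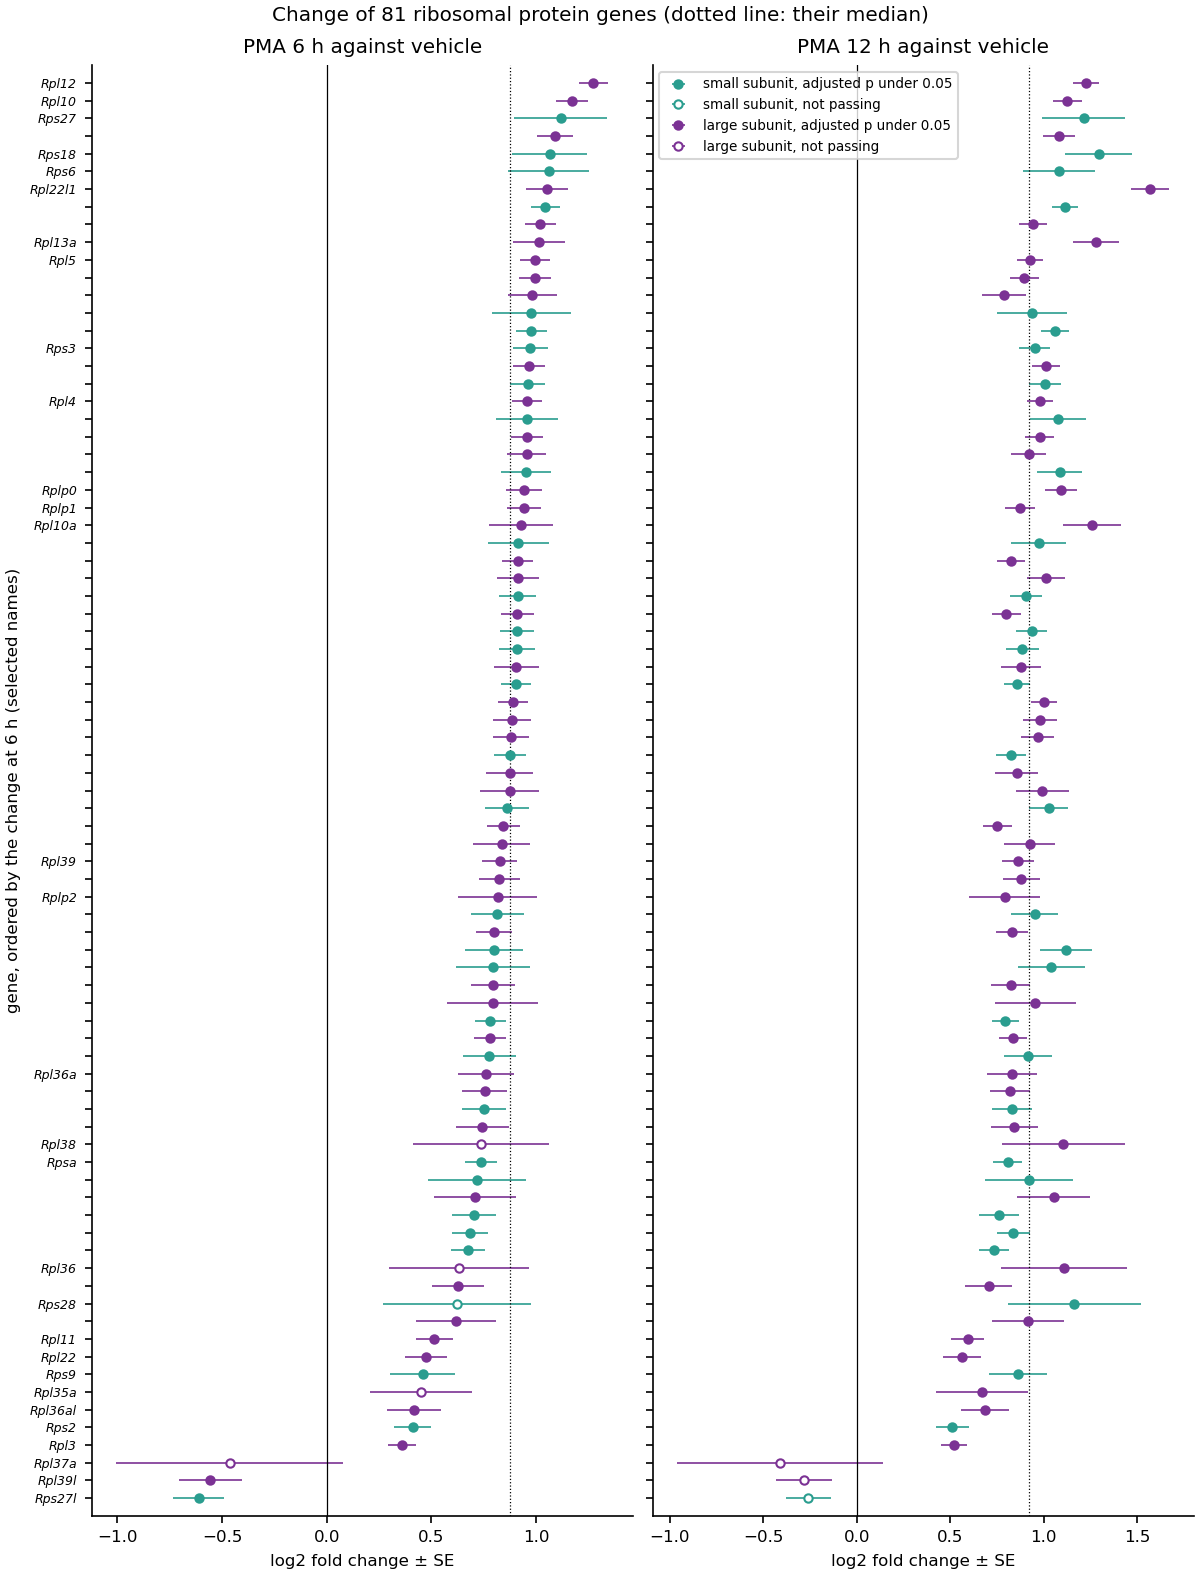
Log2 fold change over vehicle of each tested ribosomal protein gene (x axis, with its SE) at 6 h (left) and 12 h (right) of PMA, with genes on the y axis ordered by the 6 h value and selected names printed, filled points for genes that passed and a dotted line at the median. Most members lie near the medians of 0.87 and 0.92, while Rps27l, Rpl39l and Rpl37a lie below 0.

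The subunits had nearly equal medians. The 32 small subunit members had median log2 fold changes of 0.87 at 6 h and 0.94 at 12 h, and the 49 tested large subunit members 0.87 and 0.90. Of the small subunit 30 rose at 6 h and 31 at 12 h, and of the large subunit 44 and 47. The difference between subunits was not tested.

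The stalk of the large subunit recruits the elongation factors, and its base and arms rose with the rest. Rplp0, the scaffold of the stalk, read 3239, 3141 and 2932 CPM in vehicle, 6063, 6231 and 5613 CPM at 6 h and 6458, 5944 and 7448 CPM at 12 h. Its PMA groups were both above vehicle and overlapped each other (log2 fold change 0.94 ± 0.09 SE at 6 h, adjusted p = 2.5e-08, and 1.09 ± 0.09 at 12 h, adjusted p = 4.1e-09). Rpl12, which sits at the base of the stalk, read 779, 758 and 758 CPM in vehicle, 1855, 1848 and 1853 CPM at 6 h and 1713, 1759 and 1898 CPM at 12 h. Of all members it rose most at 6 h (1.28 ± 0.07, adjusted p = 2.5e-11), and it stayed at that level at 12 h (1.23 ± 0.07, adjusted p = 4.8e-11). Rplp1, an acidic protein of the flexible arms, read 1318, 1210 and 1156 CPM in vehicle, 2324, 2293 and 2460 at 6 h and 2166, 2125 and 2460 at 12 h. It was higher in every PMA library than in any of vehicle (0.94 ± 0.08 and 0.87 ± 0.08). Rplp2, its partner in the arms, was counted at only 14.0 to 21.9 CPM in vehicle, 26.3 to 33.1 at 6 h and 22.1 to 35.2 at 12 h, and it rose as well (0.82 ± 0.19 and 0.79 ± 0.19).

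Rpl5 and Rpl11 travel together with the 5S ribosomal RNA and, when free, bind the p53 ligase Mdm2. They rose by unequal amounts. Rpl5 read 1249, 1190 and 1214 CPM in vehicle, 2473, 2462 and 2352 at 6 h and 2421, 2241 and 2276 at 12 h (1.00 ± 0.07 and 0.93 ± 0.07). Rpl11 read 504, 487 and 480 CPM in vehicle, 724, 772 and 606 at 6 h and 743, 680 and 795 at 12 h. Its libraries too were all above vehicle, by 0.52 ± 0.09 at 6 h (adjusted p = 4.9e-05, -0.025 without scaling) and 0.59 ± 0.09 at 12 h (adjusted p = 1.1e-05). Without scaling the 12 h value was 0.010 and did not pass (edgeR adjusted p = 0.91).

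Proteins of the small subunit with roles in signalling or outside the ribosome followed the set. Rps3, at the entry of the mRNA channel, read 1279, 1267 and 1171 CPM in vehicle, 2489, 2488 and 2324 at 6 h and 2398, 2117 and 2667 at 12 h (0.97 ± 0.09 and 0.95 ± 0.09). Rps27a, made as a fusion with ubiquitin, read 985, 930 and 942 CPM, then 1800, 1747 and 1796, then 1764, 1621 and 1790 (0.90 ± 0.07 and 0.86 ± 0.07). Rpsa, also known as a laminin receptor, read 1568, 1509 and 1449 CPM, then 2520, 2513 and 2517, then 2509, 2481 and 2923 (0.74 ± 0.08 and 0.81 ± 0.08). In all of these the PMA libraries lay above vehicle and the PMA groups overlapped. Rps4x, the X-linked form of Rps4, rose by 0.96 ± 0.08 and 1.01 ± 0.08. Rps6, the substrate of the S6 kinases, was counted at only 26.6 to 43.5 CPM in vehicle, 62.4 to 76.5 at 6 h and 59.6 to 89.2 at 12 h, and rose by 1.06 ± 0.19 and 1.08 ± 0.19.

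Rpl10, Rps27 and Rps18 were also among the largest rises at 6 h. Rpl10, which joins the large subunit late in its assembly, read 826, 790 and 751 CPM in vehicle, 1771, 1822 and 1743 at 6 h and 1683, 1609 and 1871 at 12 h (1.17 ± 0.08 and 1.13 ± 0.08). Rps18, in the head of the small subunit, read 713, 728 and 647 CPM, then 1573, 1601 and 1197, then 1578, 1352 and 2193 (1.07 ± 0.18 and 1.29 ± 0.18). For both, each PMA library was above each vehicle library, and Rps18 was spread much more widely within the PMA groups. At 12 h the largest rise was that of the paralog Rpl22l1. Rps18, Rpl13a (1.28 ± 0.13, 1.01 ± 0.12 at 6 h), Rpl10a (1.26 ± 0.15, 0.93 ± 0.15 at 6 h) and Rpl12 followed. Rpl13a read 1101, 1163 and 1096 CPM in vehicle, 2430, 2378 and 1978 at 6 h and 2547, 2260 and 3346 at 12 h. In Rps18, Rpl13a and Rpl10a PMA 12 h replicate 3 was the highest of its group. Whether their place above Rpl12 rests on that library was not tested. Rpl13a is known for silencing inflammatory mRNAs after it leaves the ribosome, and Rpl10a forms part of the stalk at the exit site for tRNA.

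**Figure D3:**
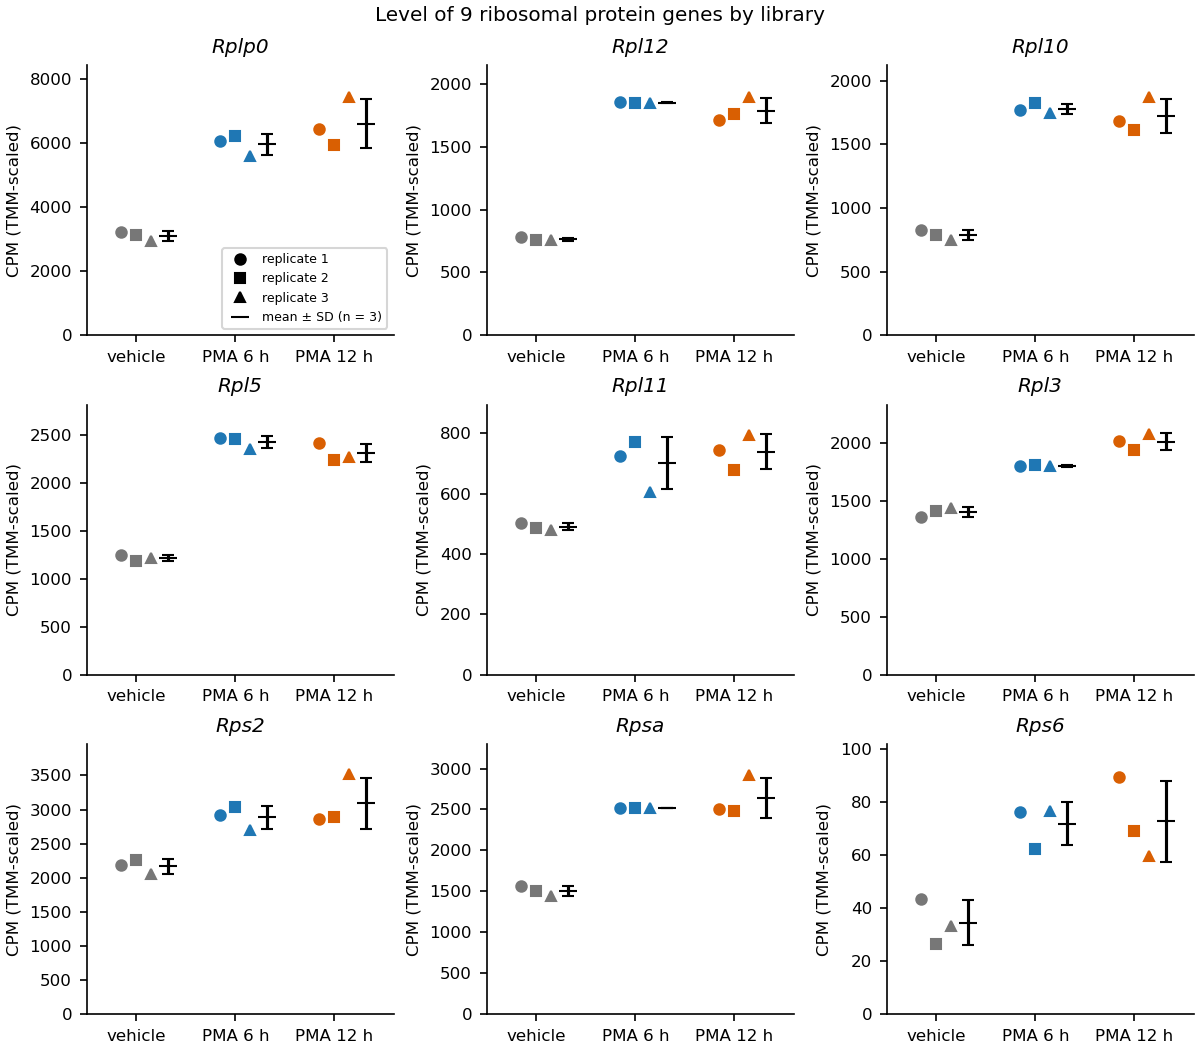
Level in CPM (y axis from 0, 1 panel per gene) of selected ribosomal protein genes in each library by group (3 libraries each), with the mean and SD. Rplp0 and Rpl12 have every PMA library above every vehicle library, with Rpl12 between 758 and 779 CPM in vehicle and between 1713 and 1898 CPM after PMA.

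Among the members with the most reads, Rplp0 and Rpl4 rose with the median, and Rps2 less. Rpl4, which lines the exit tunnel, went from 2068 ± 66.7 CPM in vehicle to 4018 ± 40.7 at 6 h and 4076 ± 209 at 12 h (SD, n = 3). Rps2, at the mRNA entry, read 2194, 2264 and 2049 CPM in vehicle, 2921, 3036 and 2696 at 6 h and 2858, 2890 and 3524 at 12 h, or 0.41 ± 0.09 and 0.51 ± 0.09 (-0.13 and -0.072 without scaling). Rpl3, close to the site of peptide bond formation, read 1358, 1414 and 1437 CPM, then 1795, 1808 and 1798, then 2014, 1938 and 2078, or 0.36 ± 0.07 and 0.52 ± 0.07 (-0.18 and -0.062 without scaling). Both were above vehicle in every PMA library on the TMM scale, by less than most of the set.

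At the other end, 9 members stayed under 100 CPM in every library, while 61 were above 300 CPM in every library. The 9 are Rps9, Rps19, Rpl7a, Rplp2, Rpl35a, Rpl39l, Rps6, Rps27l and Rpl37a, and those outside the naming rule were named after their counts were seen. The tables count reads that map to a single place, and ribosomal protein genes have many processed copies in the genome, so the level of a low member is uncertain. The lowest were Rpl37a (0.441 to 1.12 CPM over all libraries), Rps19 (6.02 to 9.02 CPM in vehicle, 13.2 to 16.2 at 6 h, 11 to 16 at 12 h) and Rps9 (13.3 to 13.9, 16.3 to 20.3 and 18.5 to 27.9 CPM). Rps19 rose by 0.98 ± 0.19 and 0.94 ± 0.19, and Rpl37a did not pass in any comparison. Rps9 rose by 0.46 ± 0.16 at 6 h (adjusted p = 0.013), a call lost without PMA 6 h replicate 2 (0.40) and with the opposite sign without scaling (-0.081), and by 0.86 ± 0.16 at 12 h.

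Of the 4 tested paralogs with a measured parent, 2 fell and 2 rose at 6 h, while all 4 parents rose on the TMM scale. Rps27l, a target of p53, read 79.4, 84.8 and 81.1 CPM in vehicle, 60.9, 58.8 and 41.0 at 6 h and 61.6, 73.8 and 69.7 at 12 h. It lay below vehicle in every PMA library and fell by 0.61 at 6 h (SE 0.12, adjusted p = 2.6e-04). Its 12 h value was -0.26 ± 0.12 (adjusted p = 0.064), which passed without PMA 6 h replicate 3 (-0.27, adjusted p = 0.0086), with upper-quartile scaling (-0.53) and without scaling (-0.84). Its parent Rps27, a zinc-binding protein of the small subunit, read 354, 298 and 301 CPM, then 775, 724 and 571, then 674, 546 and 991 (1.12 ± 0.22 and 1.21 ± 0.22).

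Rpl39l, a paralog best known from male germ cells, moved like Rps27l. It read 28.4, 31.8 and 35.2 CPM in vehicle, 24.9, 24.4 and 15.8 at 6 h and 27.8, 24.0 and 26.7 at 12 h. It fell by 0.56 at 6 h (SE 0.15, adjusted p = 0.0030), and its 12 h value was -0.28 ± 0.15 (adjusted p = 0.099, passing at 0.027 without PMA 6 h replicate 3, and reaching -0.55 under upper-quartile scaling or -0.86 with no scaling). Its parent Rpl39, which lines the end of the exit tunnel, read 146, 132 and 132 CPM, then 254, 260 and 214, then 248, 233 and 265 (0.83 ± 0.08 and 0.86 ± 0.08). So 2 paralogs were lower in all PMA libraries while both parents were higher in all of them.

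Rpl22l1 had larger fold changes than its parent. It read 57.4, 73.6 and 77.7 CPM in vehicle, 149, 150 and 134 at 6 h and 191, 222 and 206 at 12 h. The 3 groups did not overlap, and it rose by 1.05 ± 0.10 at 6 h (adjusted p = 5.1e-08) and 1.57 ± 0.10 at 12 h (adjusted p = 3.6e-10). Rpl22, an RNA-binding protein that represses Rpl22l1, read 207, 210 and 203 CPM, then 309, 321 and 234, then 335, 295 and 288 (0.48 ± 0.10 and 0.56 ± 0.10, -0.065 and -0.016 without scaling). Rpl36al read 110, 119 and 105 CPM, then 162, 155 and 129, then 173, 145 and 217 (0.42 ± 0.13 and 0.68 ± 0.13, with -0.12 at 6 h without scaling). Its parent Rpl36a rose by 0.76 ± 0.13 and 0.83 ± 0.13.

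The reads of a paralog as a percent of its parent's need no library scaling, since both come from the same library. For Rps27l this was 22.4%, 28.4% and 27.0% in vehicle, 7.87%, 8.13% and 7.19% at 6 h and 9.14%, 13.5% and 7.04% at 12 h. For Rpl39l it was 19.4%, 24.1% and 26.6%, then 9.80%, 9.40% and 7.39%, then 11.2%, 10.3% and 10.1%. Both were lower in each PMA library than in any vehicle library. For Rpl22l1 it was 27.7%, 35.0% and 38.2%, then 48.1%, 46.9% and 57.5%, then 56.9%, 75.2% and 71.7%, with both PMA groups above vehicle and overlapping each other. For Rpl36al it was 28.3%, 31.7% and 26.7%, then 22.8%, 23.4% and 22.1%, then 27.1%, 26.4% and 25.3%, where the 12 h libraries overlapped vehicle. The exact two-sided permutation p was 0.1, the smallest 3 against 3 can give, for each of the 4 pairs at 6 h and for all but Rpl36al (0.2) at 12 h. These percents are not per length, so they compare libraries and not the amounts of a pair.

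**Figure D4:**
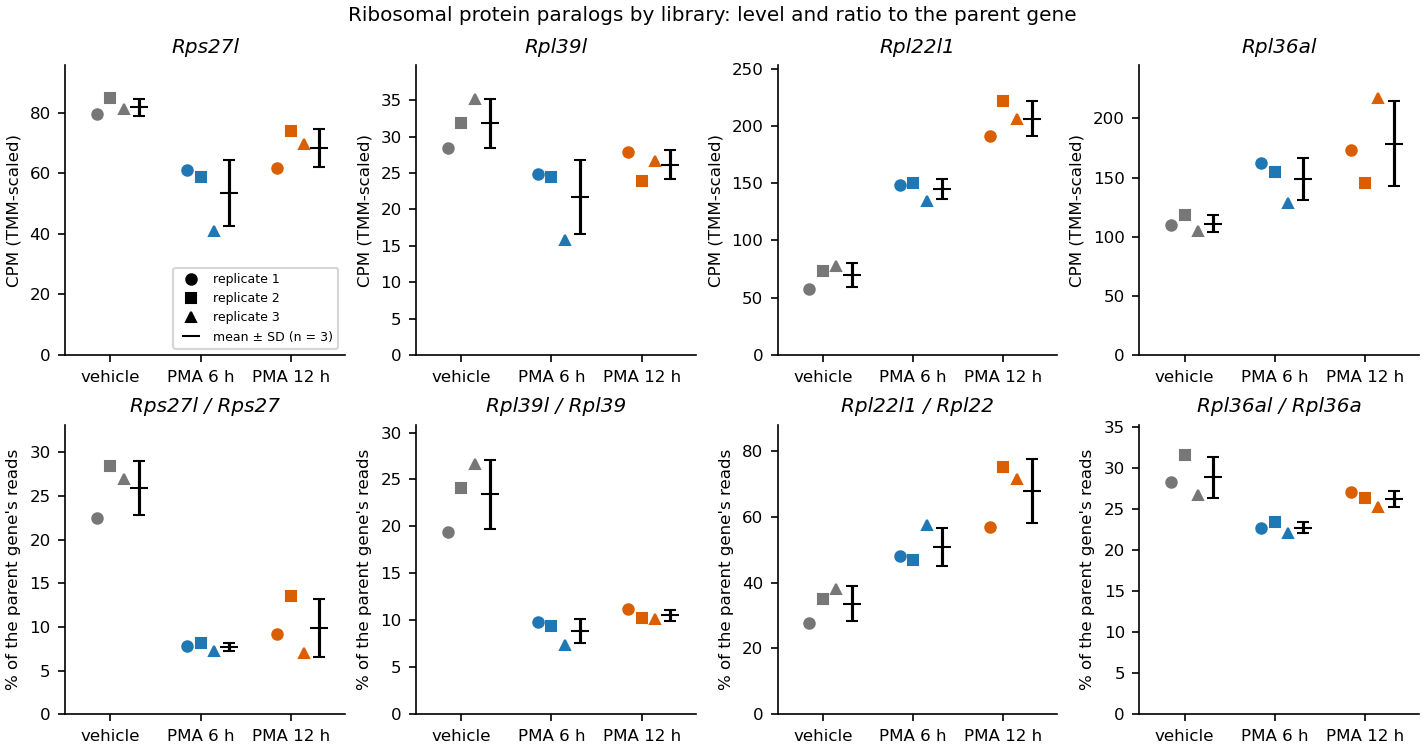
Level in CPM of 4 paralogs (top row) and their reads as a percent of the reads of their parent gene (bottom row, y axes from 0) in each library by group (3 libraries each), with the mean and SD. In the bottom row Rps27l and Rpl39l drop from 19.4% or more in vehicle to 13.5% or less after PMA, and Rpl22l1 climbs from at most 38.2% to at least 46.9%.

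To ask which members moved differently from the set, each was also tested with the summed ribosomal protein counts as the library size, so that a fold change is a change in the gene's share of the pool. At 6 h 13 members changed their share, 3 up and 10 down, where 79.8% of all tested genes were called against that pool. At 12 h 14 did, 5 up and 9 down (80.8% of all genes). The other members did not pass this test, which does not show that their shares were equal. Rpl12 gained at both times (0.42 ± 0.10, adjusted p = 7.0e-04, and 0.30 ± 0.10, adjusted p = 0.0093), as did Rpl10 at 6 h (0.31 ± 0.09), Rpl22l1 (0.64 ± 0.14) and Rps18 (0.34 ± 0.11) and Rpl13a (0.33 ± 0.10) at 12 h. Rpl10a at 12 h (0.31 ± 0.11) also gained.

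Members that lost share did so at both times, apart from Rpl35a at 6 h. Rps27l lost most (-1.48 ± 0.14 and -1.18 ± 0.14), followed by Rpl39l (-1.43 ± 0.16 and -1.21 ± 0.16) and the nearly uncounted Rpl37a (-1.32 ± 0.56 and -1.32 ± 0.57). Rpl3 (-0.50 ± 0.10 and -0.41 ± 0.10), Rps2 (-0.45 ± 0.09 and -0.42 ± 0.09), Rpl22 (-0.40 ± 0.12 and -0.36 ± 0.12) and Rpl11 (-0.35 ± 0.10 and -0.34 ± 0.10) lost less, and were among the members that rose least. Rpl36al (-0.45 ± 0.11 and -0.26 ± 0.11) and Rpl27 (-0.24 ± 0.10 at both times) complete the list, of which Rpl27 and Rpl35a were named after their values were seen. Of these calls 9 of 13 at 6 h and 10 of 14 at 12 h held under all 13 alternatives. Without a library, calls were lost for Rpl10a (vehicle replicates 1 and 2) and Rpl35a (vehicle replicate 1, -0.29, and PMA 6 h replicate 3, -0.23). Rpl27 at both times and Rpl36al at 12 h lost theirs without most of the libraries in turn (lowest value -0.19 for Rpl27 and -0.20 for Rpl36al, both without PMA 12 h replicate 2). Rpl37a lost its call without vehicle replicate 3 (-0.90 at 6 h and -0.91 at 12 h), without PMA 6 h replicate 2 or 3 at 6 h, and without PMA 12 h replicate 1 or 3 at 12 h.

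Between 6 h and 12 h the set hardly moved. Only Rpl22l1 (0.51 ± 0.10, adjusted p = 3.7e-04), Rps9 (0.40 ± 0.16, adjusted p = 0.039) and Rps27l (0.35 ± 0.12, adjusted p = 0.026) rose, none fell and 78 of 81 did not pass, while 51.1% of all tested genes were called (25.3% higher and 25.8% lower). The median log2 fold change of the members was 0.07, and 5 members had an unadjusted p under 0.05. Rpl22l1 kept its call without any 1 library, and in share of the pool it also rose (0.46 ± 0.14, adjusted p = 0.013, with 42.6% of all genes called; 0.32 and not passing without PMA 12 h replicate 2). Rps27l lost its call without PMA 6 h replicate 3 (0.19), PMA 12 h replicate 2 (0.30) or PMA 12 h replicate 3 (0.34). Rps9, whose groups overlapped, lost its call without PMA 6 h replicate 1 (0.44) or 3 (0.31) or PMA 12 h replicate 1 (0.31) or 2 (0.31). The number of members called was 8, all higher, without PMA 12 h replicate 2 and 1 without PMA 6 h replicate 3.

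Replicate 3 deviated from the other two in its ribosomal protein reads, by more in the PMA groups than in vehicle. Relative to the mean of replicates 1 and 2, the median member was at 0.855 in PMA 6 h replicate 3, with 69 of 81 below 1, and at 1.16 in PMA 12 h replicate 3, with 70 above 1. Vehicle replicate 3 also had 69 of 81 below 1, with a median nearer to 1, at 0.952. Over the 2042 genes above 100 CPM the medians were 1.01 in vehicle, 0.987 at 6 h and 0.994 at 12 h. TMM scaling sets the typical ratio near 1, so these medians cannot show whether other genes deviated. Most of those genes lay between 0.780 and 1.16 at 6 h and between 0.834 and 1.23 at 12 h. The median member lay within these ranges. PMA 6 h replicate 3 had the highest share of unmapped reads (7.61%) and PMA 12 h replicate 3 the lowest (3.88%), with the highest share of multimapping reads (7.74%, others 5.95% to 6.35%). The part of these values in the deviation was not tested.

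**Figure D5:**
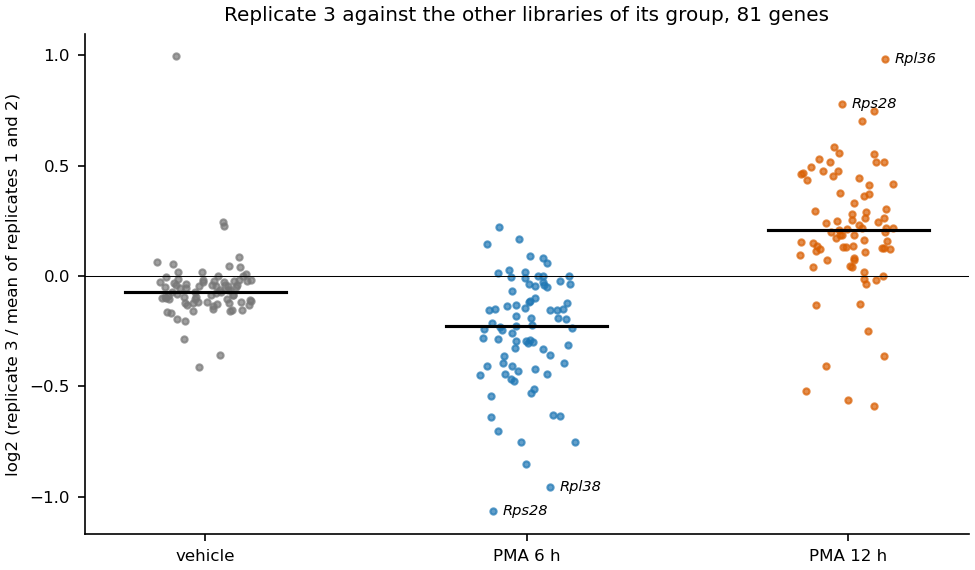
Level in replicate 3 over the mean of replicates 1 and 2 (log2 scale, y axis) for each tested ribosomal protein gene, by group (x axis), with the median as a bar. The median lies below 0 at 6 h (ratio 0.855) and above 0 at 12 h (ratio 1.16). Rps28 and Rpl36 deviate most in the PMA groups, and the lone high vehicle point is Rpl37a, which has few reads.

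The members with the widest relative spread at 6 h account for 4 of the 5 that did not pass at 6 h. They were named after their values were seen. Rps28 read 160, 145 and 133 CPM in vehicle, 274, 272 and 130 at 6 h and 299, 230 and 453 at 12 h. Rpl36 read 322, 307 and 281 CPM, then 538, 551 and 323, then 546, 441 and 974. Rpl38 read 214, 195 and 207 CPM, then 397, 420 and 211, then 409, 311 and 604. In each of these, PMA 6 h replicate 3 was near vehicle and PMA 12 h replicate 3 was the highest of all. At 6 h the log2 fold changes were 0.62 ± 0.35 for Rps28, 0.63 ± 0.33 for Rpl36, 0.74 ± 0.33 for Rpl38 and 0.45 ± 0.24 for Rpl35a, with adjusted p of 0.15, 0.13, 0.075 and 0.12. Without PMA 6 h replicate 3 Rps28 (0.89), Rpl38 (0.98) and Rpl35a (0.67) passed, and without PMA 12 h replicate 3 Rpl36 (0.63) did. At 12 h they rose by 1.16 ± 0.36, 1.11 ± 0.34, 1.10 ± 0.33 and 0.67 ± 0.24.

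Each of those 12 h calls was lost without some libraries. Rps28 did not pass without PMA 12 h replicate 3 (0.86) or without vehicle replicate 2 (1.15) or 3 (1.10), nor Rpl36 without vehicle replicate 1 (1.15), 2 (1.11) or 3 (1.05). Rpl38 did not pass without PMA 12 h replicate 3 (0.81) or without vehicle replicate 1 (1.13) or 2 (1.07), nor Rpl35a without PMA 12 h replicate 1 (0.56) or 3 (0.68) or without vehicle replicate 2 (0.63) or 3 (0.56). Rps21, also named after its values were seen, lost its 6 h call without PMA 6 h replicate 1 (0.59) or 2 (0.62) or without vehicle replicate 2 (0.72) or 3 (0.65). With both PMA replicates 3 left out, a choice made after seeing the data, 78 members rose and 2 fell against vehicle at each time. Of all 10258 genes then tested, 7688 were called at 6 h (3756 higher, 3932 lower) and 7556 at 12 h (3740 higher, 3816 lower). From 6 h to 12 h 2 members then rose (Rpl22l1 and Rps9), 3 fell (Rpl23, Rpl34 and Rps27), and the members' median was -0.073. Over all genes 4489 were called in that step (2255 higher, 2234 lower). So the members called higher than vehicle were not fewer without these libraries, while the sign of the small median step from 6 h to 12 h turned.

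Over the whole set, a pyrimidine start was common. By symbol 65 members had an entry, and 64 with a single entry were used. Of these 24 (37.5%) began with C in an unbroken C or T stretch of at least 5 bases at the annotated start, against 2.38% of 7384 tested genes outside the family and 2.63% of all 33469 promoters. A stretch of at least 8 pyrimidines within 20 bases of the start was present in 71.9%, 13.9% and 15.5% in the same order. Members with the stretch at the start had a median log2 fold change of 0.91 at both times (n = 24), and those without it 0.84 at 6 h and 0.93 at 12 h (n = 39). Of the 24, 22 rose at 6 h and 23 at 12 h, and of the 39, 35 and 38.

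Letters searched on both strands of the 300-base windows gave further shares. TATAA was in 26.6% of the member windows, 12.4% of those of other tested genes and 26.2% of all promoters. AAGATGG was in 15.6%, 8.69% and 7.01%, and GGAAG, letters found in most promoters, was in 89.1%, 75.1% and 70.1%. A match is a description of the letters and not a binding site.

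Fau and Gnb2l1, which encode ribosomal proteins but fall outside the symbol rule, also rose. Fau, whose protein is cut to release the small subunit protein eS30, read 386, 364 and 368 CPM in vehicle, 782, 743 and 644 at 6 h and 733, 676 and 1044 at 12 h. Gnb2l1, the older symbol of the scaffold Rack1, read 1225, 1184 and 1112 CPM, then 2204, 2216 and 2272, then 2181, 2124 and 2425. Fau rose by 0.96 ± 0.14 at 6 h and 1.13 ± 0.14 at 12 h, and Gnb2l1 by 0.93 ± 0.08 at both times. Neither passed between the times, with log2 fold changes of 0.18 ± 0.14 and 0.01 ± 0.07.

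Other mRNAs of the TOP class moved less evenly. Of 23 tested, 16 rose and 4 fell at 6 h (median 0.49), 14 rose and 5 fell at 12 h (median 0.40), and 3 rose and 5 fell from 6 h to 12 h (median -0.04). Over all tested genes 37.8% rose and 39% fell at 6 h, 37.7% and 38.2% at 12 h, and 25.3% and 25.8% from 6 h to 12 h, so the last of these list counts is not above that background. The elongation factors went different ways. Eef1a1, which brings tRNA to the ribosome, rose by 1.65 ± 0.07 and 1.61 ± 0.07, and Eef2, which moves the ribosome along, by 1.18 ± 0.07 and 1.16 ± 0.07. Of the subunits that recharge Eef1a1 with GTP or hold that complex together, Eef1b2 (0.58 ± 0.08 and 0.63 ± 0.08) and Eef1g (0.70 ± 0.08 and 0.82 ± 0.08) rose by less, and Eef1d fell by 0.50 at 6 h and 0.56 at 12 h (SE 0.07 each). Pabpc1, the poly(A)-binding protein, read 1704, 1819 and 1930 CPM in vehicle, 4486, 4625 and 5257 at 6 h and 6109, 6532 and 7166 at 12 h, so its 3 groups did not overlap (1.40 ± 0.09, 1.86 ± 0.09, and 0.46 ± 0.09 from 6 h to 12 h). Tpt1 rose by 1.19 ± 0.07 and 1.13 ± 0.07. Hnrnpa1, a splicing regulator, had the largest fall of the list, from 561.5 ± 33.2 CPM to 246.4 ± 21.4 and 219.3 ± 13.5 (-1.19 ± 0.08 and -1.36 ± 0.08). Npm1, a nucleolar chaperone, went from 1886 ± 74.7 CPM to 2171 ± 97.0 at 6 h (0.20 ± 0.07, -0.055 with upper-quartile scaling, -0.33 without scaling, and not passing at 0.17 once vehicle replicate 2 was left out or 0.16 once PMA 6 h replicate 3 was) and 1219 ± 29.8 at 12 h (-0.63 ± 0.07).

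Dedicated partners and assembly factors of ribosomal proteins had medians below 0. Of 15 tested, 4 rose and 8 fell at 6 h (median -0.44), 2 rose and 9 fell at 12 h (median -0.68), and 2 rose and 6 fell from 6 h to 12 h (median -0.18). The shares over all genes were 37.8% up and 39% down at 6 h, 37.7% and 38.2% at 12 h, and 25.3% and 25.8% between the times, and with 15 genes the 6 h counts are not far from them. Ltv1, an export factor of the small subunit, fell by 1.41 at 6 h (SE 0.12) and 1.57 at 12 h (SE 0.13). Bccip, a carrier of Rpl23, fell by 1.39 and 1.60 (SE 0.17 each). Rpf2, which helps to place the 5S particle with Rpl5 and Rpl11, fell by 0.97 (SE 0.12) and 1.72 (SE 0.13). Nmd3, the export adaptor of the large subunit, turned, with 62.8 ± 8.43 CPM in vehicle, 93.1 ± 4.05 at 6 h and 37.2 ± 4.86 at 12 h (0.57 ± 0.11, then -1.32 ± 0.11 from 6 h to 12 h).

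Genes of mTORC1 and S6 kinase control went both ways, as genes did overall. Of 22 tested, 10 rose and 5 fell at 6 h (median 0.14), 9 rose and 8 fell at 12 h (median 0.13), and 4 rose and 7 fell from 6 h to 12 h (median 0.01). At 12 h these counts are near the shares over all genes (37.7% up, 38.2% down), and at 6 h fewer fell than the 39% over all genes. Mtor, the kinase itself, read 59.8, 64.0 and 63.5 CPM in vehicle, 24.9, 24.0 and 22.0 at 6 h and 29.1, 33.0 and 29.7 at 12 h (-1.40 ± 0.10 and -1.03 ± 0.10). Tsc1, part of the complex that restrains mTORC1, read 16.3, 19.3 and 18.2 CPM, then 72.0, 73.2 and 85.6, then 114, 96.7 and 105 (2.11 ± 0.10 and 2.56 ± 0.10). Rragd, a GTPase that brings mTORC1 to lysosomes, rose by 1.58 ± 0.18 and 2.10 ± 0.18. These 3 genes had no overlap between vehicle and PMA. Rps6kb1, the S6 kinase, was at 0.07 ± 0.11 and 0.09 ± 0.11 and Eif4ebp1, the translation repressor, at 0.12 ± 0.10 and 0.17 ± 0.10 on the TMM scale, none of which passed, while without scaling they read -0.47 and -0.49, and -0.42 and -0.41. Myc, a transcription factor that drives ribosome production, read 171, 177 and 192 CPM in vehicle, 318, 314 and 301 at 6 h and 473, 489 and 464 at 12 h, and rose in both steps (0.79 ± 0.07, then 0.61 ± 0.07). Larp1, which binds TOP mRNAs, was on this list but was not among the tested genes.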

How the data were processed

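Total RNA was sequenced in 9 libraries (3 per group). Reads were aligned with STAR 2.7.5b to rn6, per the submitters' processing notes, and the authors deposited a table of read counts per gene for each library. Its unstranded column was used. For its gene annotation no source used here gives a name. A table of DESeq2-normalized values, also deposited, was not used here. The 4 summary lines, which held 28.7% to 32.2% of all reads, were left out.

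The count model was fitted by edgeR 4.0.16 under R 4.3.3 (filterByExpr, minimum count 10, TMM, robust quasi-likelihood F test, group as the only term, all 9 libraries, Benjamini-Hochberg over 10128 genes, adjusted p under 0.05). A further fit used the summed ribosomal protein counts as library size. The steps were also run on simulated counts in which few genes changed, as many up as down. In these data most genes were called against vehicle, so that run cannot check the scaling. Alternatives used DESeq2 1.42.0, limma 3.58.1, other scalings, no filter, summed strand columns, the compared groups only, a replicate block, and each library left out. Chi-square over degrees of freedom for replicate pairs was 3.94 to 28.9, against 1 for counting error alone, so none were copies. Summed strand columns exceeded the unstranded count by at most 0.287% for any member.

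The members and lists were chosen with earlier results of these data known. The naming rule took each paralog with its parent, the stalk, Rpl5, Rpl11, Rps6, Rps27a, Rpsa, Rps3, Rpl13a, the 5 largest called rises and falls per comparison, the 3 largest each way in share of the pool, the 3 highest and lowest levels, and, in the other lists, fixed genes plus the 2 largest each way. A few genes that the rule or the lists name are not reported here.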

Additional observations from a re-analysis of the deposited data

Results flagged for a closer look

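Between 6 h and 12 h of PMA the level differed for 3 members, while 51.1% of all tested genes were called. The test was that of 12 h against 6 h in edgeR (quasi-likelihood, Benjamini-Hochberg adjustment). No vehicle library was labelled 6 h or 12 h, so PMA and time in culture cannot be told apart here. Rps27l and Rps9 lost their calls without some single libraries. Rpl22l1 was higher at 12 h by 0.51 on the log2 scale (adjusted p = 3.7e-04), with all 3 libraries at 12 h above all 3 at 6 h. Rps27l was higher at 12 h by 0.35 (adjusted p = 0.026), also without overlap, after a fall at 6 h. Rps9 was higher at 12 h by 0.40 (adjusted p = 0.039), with PMA 12 h replicate 3 inside the range of the 6 h libraries.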

How the results depend on the processing

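The main fit was compared with 20 alternative settings. Leaving out each library in turn gave 74 to 79 members called against vehicle at 6 h and 74 to 80 at 12 h. Upper-quartile scaling gave 67 and 76 (7860 and 7790 of all genes), and no scaling 54 and 60 (8132 and 8141 of all genes). Under every alternative 53 of 76 calls held at 6 h and 58 of 78 at 12 h. With upper-quartile scaling and no scaling set aside, 74 of 76 and 74 of 78 held. Upper-quartile scaling moved the median log2 fold change of the members to 0.62 at 6 h and 0.65 at 12 h, and no scaling to 0.33 at both times, each of which also shifts the median of all genes. From 6 h to 12 h DESeq2 called 6 members, leaving out single libraries gave 1 to 8, and leaving out both PMA replicates 3 gave 5, with a median of -0.073. Over all tested genes the calls in the same order were 5202, 4623 to 5275, and 4489. In share of the pool that comparison had 2 calls by DESeq2, 4 by limma-voom and 1 to 3 without single libraries. The cause of these differences was not tested.

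Signs turned without scaling at 6 h for Cox7c (-0.31), Eif4ebp1 (-0.42), Mdm2 (-0.31), Npm1 (-0.33), Pdcd2 (-0.061), Rpl11 (-0.025), Rpl22 (-0.065), Rpl3 (-0.18), Rpl36al (-0.12), Rps2 (-0.13), Rps6kb1 (-0.47), Rps9 (-0.081) and Sbds (-0.23), and at 12 h for Eif4ebp1 (-0.41), Mdm2 (-0.37), Pdcd2 (-0.49), Rpl22 (-0.016), Rpl3 (-0.062), Rps2 (-0.072), Rps6ka3 (-0.093), Rps6kb1 (-0.49) and Sbds (-0.0026). Upper-quartile scaling turned Mdm2 (-0.032 and -0.059) and, at 6 h, Npm1 (-0.055). Without both PMA replicates 3 Rps27 was at -0.29 from 6 h to 12 h.

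The labels do not say whether replicate numbers pair the libraries, and correlations of deviations from means of 3 libraries cannot decide it. Those of same-numbered libraries ran from -0.196 to 0.063 over all tested genes. Over the ribosomal protein genes alone they ran from -0.62 to 0.58, with vehicle and PMA 6 h at 0.16, 0.47 and 0.14. With a replicate block 75 members rose and 2 fell at 6 h, 78 rose and none fell at 12 h, and 3 rose from 6 h to 12 h. For members with few counted reads, such as Rpl37a, these counts can show little.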
